A study of Mus musculus with 2 samples.

Results

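The genes described here are 10 antioxidant and ferroptosis genes, taken by symbol from the 32285 genes counted in nuclei of mouse brain: *Nfe2l2*, *Hmox1*, *Nqo1*, *Gclc*, *Gclm*, *Slc7a11*, *Txnrd1*, *Srxn1*, *Gpx4* and *Acsl4*. All 10 were found. Nuclei of male C57BL/6J mice, labelled as 6 to 8 weeks old, were sequenced as 1 Normal and 1 SAH library. SAH mice were taken 12 h after subarachnoid haemorrhage by endovascular perforation, and each library was a pool of tissue from 3 mice. The tissue came from the hemisphere of the injured side, between bregma 2.34 mm and -2.18 mm. The labels call the control mice normal, where the study describes sham-operated mice, so whether they were operated on is not settled. The pooling leaves no measure of the variation between mice.

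NRF2, the protein of *Nfe2l2*, is a transcription factor that KEAP1 holds at a low level until oxidants or electrophiles modify KEAP1. It then pairs with small MAF proteins at antioxidant response elements and switches on genes of haem breakdown, quinone reduction, glutathione synthesis and thioredoxin recycling. Ferroptosis is an iron-dependent death by peroxidation of membrane phospholipids. The selenoprotein GPX4 reduces those peroxides with glutathione, whose cysteine enters cells as cystine through the transporter encoded by *Slc7a11*, while ACSL4 loads membranes with the polyunsaturated fatty acids that are peroxidised. Haemoglobin from extravasated blood is a source of haem and iron after haemorrhage, and HMOX1 breaks haem down.

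The files held 12204 Normal nuclei with 114970719 unique molecular identifiers (UMIs) and 18209 SAH nuclei with 172604358 UMIs. After limits on nuclei and removal of doublets, 10955 and 15536 nuclei were kept, with medians of 6877 and 7839.5 UMIs. The libraries shared 78 cell barcodes. Nuclei formed 47 clusters, made without the 10 genes, and a cluster was called after a cell type from marker genes. Oligodendrocyte-like clusters held 1671 Normal and 3131 SAH nuclei, microglia-like 992 and 1277, excitatory neuron-like 4062 and 6061, inhibitory neuron-like 3297 and 3808, and border macrophage-like 28 and 44. Of the 47 clusters, 8 stayed unnamed, and no cluster was named after astrocytes or endothelial cells. Levels are UMIs of the gene per 1000000 UMIs of the class (CPM), and brackets hold 95% intervals, Poisson for levels and binomial for ratios and shares. With 1 library per condition no difference could be tested, and intervals cover counting error only, not the variation between mice or libraries.

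Stretches of the promoters of *Gclm*, *Txnrd1* and *Nfe2l2* are shown because they hold the core of the antioxidant response element, TGACNNNGC on either strand (RefSeq, GRCm38.p6, 5′ to 3′ on the strand of the gene, 250 bases before to 50 after the start). Capitals mark the core, read on the opposite strand in *Gclm* and *Txnrd1*. *Gclm* is from chr3:122245399-122245455 on the plus strand, *Txnrd1* from chr10:82859090-82859146 on the plus strand and *Nfe2l2* from chr2:75704871-75704913 on the minus strand.
Gclm: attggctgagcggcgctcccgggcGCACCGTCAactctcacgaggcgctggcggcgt
Txnrd1: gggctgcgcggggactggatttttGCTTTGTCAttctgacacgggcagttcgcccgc
Nfe2l2: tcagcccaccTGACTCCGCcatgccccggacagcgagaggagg
In *Nfe2l2* the listed start does not open a transcript of the gene annotation used. The core also lies in the *Srxn1* promoter, 28 bases after the start, and in 12.4% of all 32851 promoters of the table. *Txnrd1* has 3 listed promoters, of which 1 holds it. None of those of *Nqo1*, *Slc7a11*, *Gpx4* or *Acsl4* does, which says only that these letters are not in the window. The related AP-1 letters TGANTCA were in 1 promoter of the members, that of *Srxn1*, and overlapped none of the cores shown. *Hmox1* and *Gclc* were not in the table used.

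For a count over genes, a gene was compared in a class when it had at least 50 UMIs over both libraries, and it was counted as higher or lower when its ratio of SAH over Normal was past 1.5-fold. In microglia-like nuclei 2 of 6 compared members were higher (*Gclm* and *Txnrd1*), against 16.3% of all compared genes, and 1 was lower (*Gpx4*), against 14.9%. In excitatory neuron-like nuclei 1 of 9 was higher (*Nfe2l2*, background 16.3%) and 1 lower (*Gpx4*, background 16.3%). In oligodendrocyte-like nuclei 0 of 6 were higher (background 14.7%) and 1 was lower (*Gpx4*, background 18.7%). In inhibitory neuron-like nuclei 0 of 9 were higher (background 12.2%) and 1 was lower (*Gpx4*, background 18.0%). With 6 to 9 genes compared, these counts were too small to set the members apart from their backgrounds. *Gpx4* was the gene counted as lower in each of the 4 classes. The median log2 ratio of the compared members was -0.11 in oligodendrocyte-like, 0.32 in microglia-like, -0.09 in excitatory and 0.01 in inhibitory neuron-like nuclei. The medians over all compared genes were -0.08, 0.01, -0.09 and -0.16.

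**Figure D1:**
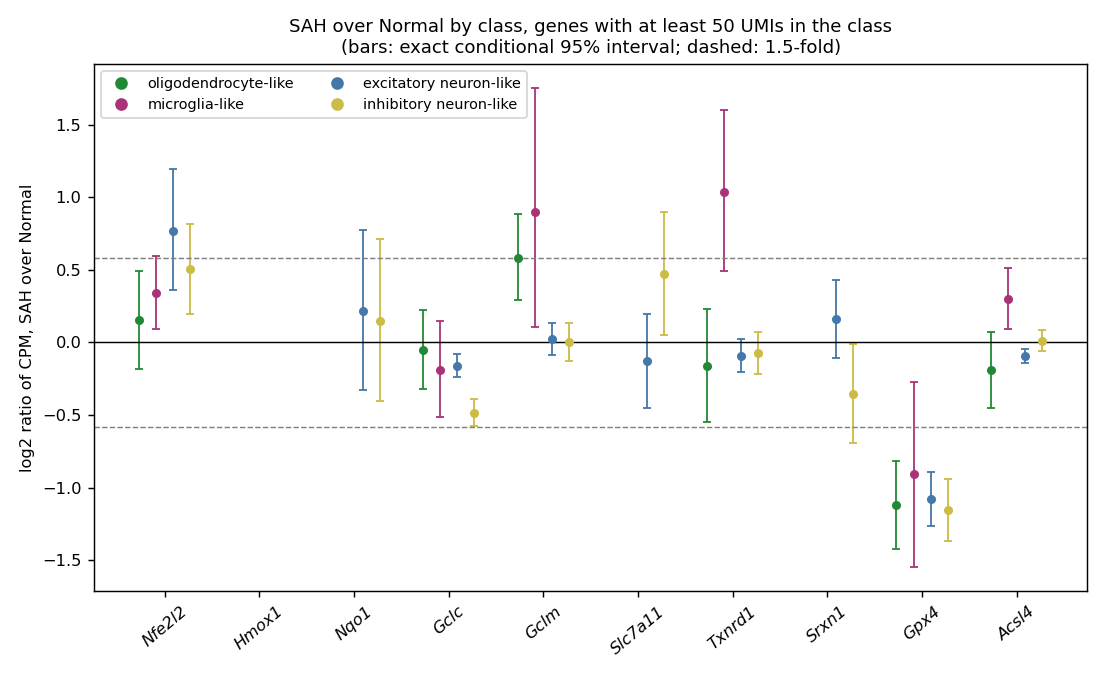
Log2 ratio of CPM, SAH over Normal, for each member with at least 50 UMIs in the class (points, coloured by class, bars the 95% interval of counting error; dashed lines 1.5-fold). *Gpx4* lies between -1.16 and -0.91 in the 4 classes, *Txnrd1* is at 1.03 in microglia-like nuclei and between -0.16 and -0.08 in the others, and *Hmox1* has too few UMIs in each class to be drawn.

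*Gpx4* (chromosome 10, 80047166 to 80056439, plus strand of GRCm38), the phospholipid hydroperoxidase that blocks ferroptosis, was lower after SAH in every main class, at 0.449 to 0.533 of its Normal level. In oligodendrocyte-like nuclei it stood at 50.4 CPM in Normal (185 UMIs) and 23.3 CPM in SAH (182 UMIs), a log2 ratio of -1.12 [-1.42, -0.81]. In microglia-like nuclei it stood at 32.2 CPM (47 UMIs) and 17.2 CPM (41 UMIs), a log2 ratio of -0.91 [-1.55, -0.27]. Excitatory neuron-like nuclei went from 10.4 CPM in Normal (552 UMIs) to 4.90 CPM in SAH (410 UMIs), with a log2 ratio of -1.08 [-1.27, -0.89]. The SAH interval lay below the Normal interval in each of these classes. For inhibitory neuron-like nuclei the values were 16.3 CPM (509 UMIs) and 7.32 CPM (286 UMIs), a log2 ratio of -1.16 [-1.37, -0.94]. Thalamic neuron-like nuclei gave -1.14 [-1.67, -0.62] from 67 and 59 UMIs. Both oligodendrocyte-like and microglia-like nuclei stood above neurons in each library, and in SAH the intervals of these glial classes overlapped.

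The lower *Gpx4* was spread over clusters. In all 33 clusters with at least 20 nuclei in each library and 20 UMIs of *Gpx4*, the SAH level was the lower one, with log2 ratios from -2.48 to -0.33, and 19 of the 33 intervals lay wholly below 0. The share of nuclei with a *Gpx4* UMI went from 10.1% [8.71, 11.7] to 5.69% [4.90, 6.55] in oligodendrocyte-like nuclei, although SAH nuclei were deeper (medians of 1925 and 2260 UMIs). With each nucleus thinned to 1000 UMIs, which left out 90 Normal and 12 SAH nuclei, these shares were 5.12% and 2.44%. Other abundant short genes were lower in the same nuclei. The 80 ribosomal protein genes summed to 4297 CPM in Normal and 2025 in SAH in oligodendrocyte-like nuclei, a log2 ratio of -1.09 [-1.12, -1.05]. Their log2 ratio was -0.77 in microglia-like, -0.82 in excitatory and -0.92 in inhibitory neuron-like nuclei, and the mitochondrial share of UMIs went from 0.188% to 0.141% in oligodendrocyte-like nuclei. Relative to the ribosomal protein genes, the log2 ratio of *Gpx4* was -0.03 in oligodendrocyte-like, -0.14 in microglia-like, -0.26 in excitatory and -0.24 in inhibitory neuron-like nuclei. Relative to the median of the 500 genes nearest in gene length it was -0.75, -0.63, -0.86 and -0.77. The part of these shifts in the level of *Gpx4* was not tested. Over 68 points (34 clusters in each library), the 3 genes whose log2(CPM + 1) followed *Gpx4* most closely were *Ppia* (Pearson r = 0.92), *Cox8a* (0.92) and *Ubb* (0.92), a cyclophilin, a subunit of cytochrome oxidase and a polyubiquitin gene. The points share their libraries and depth.

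**Figure D2:**
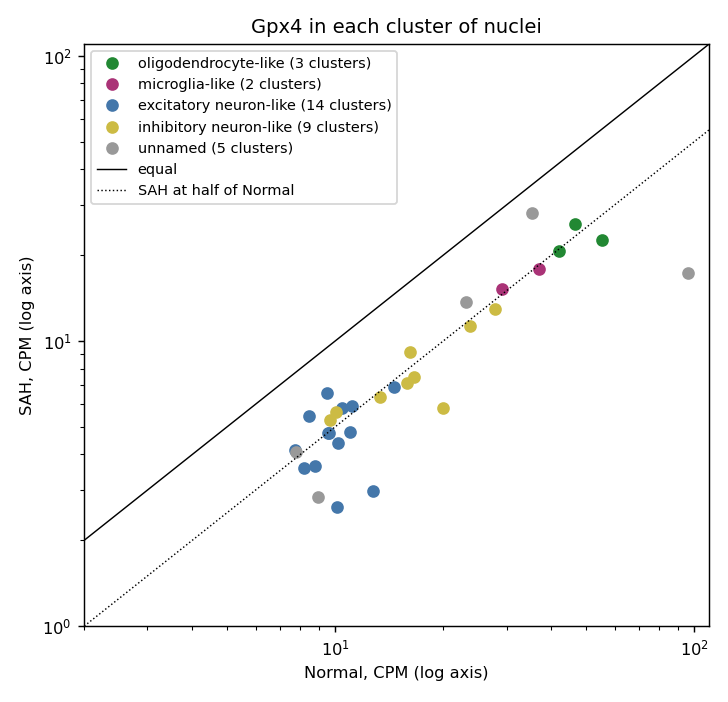
*Gpx4* in each cluster with at least 20 nuclei in each library and 20 UMIs: CPM in Normal (x, log axis) against CPM in SAH (y, log axis), coloured by class. All 33 points lie below the line of equal levels and most lie near the dotted line at 2-fold lower.

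*Hmox1* (chromosome 8, 75093621 to 75100589, plus strand of GRCm38), the inducible haem oxygenase, had its highest levels in myeloid nuclei and was higher there after SAH. Microglia-like and border macrophage-like nuclei together held 1.68% of all UMIs and 46.4% of the 140 UMIs of *Hmox1*. The 28 Normal border macrophage-like nuclei held 0 UMIs (0 CPM [0, 107]), and 3 counts there would be 86.9 CPM. The 44 SAH nuclei held 31 UMIs, or 338 CPM [230, 480], and the intervals did not overlap. The SAH level was 3.90-fold that of 3 counts in Normal, which is not a lower limit of the ratio. The 31 SAH UMIs came from 16 of the 44 nuclei (36.4% [22.4, 52.2]) with at most 4 in 1 nucleus, and without that nucleus the level was 304 CPM. In Normal, 0 of 28 nuclei had a UMI, with an upper limit of 12.3%, and 14 of them had fewer than 1000 UMIs. With nuclei thinned to 1000 UMIs the shares were 0 of 14 (upper limit 23.2%) and 10 of 43 (23.3% [11.8, 38.6]), and these intervals overlapped. Border macrophage-like nuclei had median depths of 998.5 and 1905.5 UMIs. Their 9 border macrophage markers summed to 18300 CPM in Normal and 21520 in SAH, and the 12 microglia markers to 10250 and 5096. The part of depth and of these marker shifts in the *Hmox1* values was not tested.

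In microglia-like nuclei *Hmox1* had 5 UMIs in Normal (3.43 CPM [1.11, 8.00]) and 29 in SAH (12.2 CPM [8.14, 17.5]), spread over 5 of 992 and 15 of 1277 nuclei. The intervals of the levels came close to each other without overlapping, but 1 SAH nucleus held 8 of the 29 UMIs. Without it the SAH level was 8.81 CPM. The shares of nuclei with a UMI, 0.504% [0.164, 1.17] and 1.175% [0.659, 1.93], had overlapping intervals. The border between microglia-like and border macrophage-like nuclei decided this value. At a cluster resolution of 0.6 microglia-like nuclei held 5 UMIs in each library and border macrophage-like nuclei 0 and 55, in 32 and 117 nuclei. Over both classes together the gene had 5 UMIs in Normal (3.35 CPM) and 60 in SAH (24.2 CPM), a 7.23-fold difference [2.93, 23.1]. The single nucleus with the most held 8 of the 60. The summed level of 9 border macrophage markers in microglia-like nuclei was 309 CPM in Normal and 674 in SAH, and that of 12 microglia markers was 25190 and 14850. Haemoglobin genes gave 45 and 27 UMIs in microglia-like nuclei. The part of these shifts in the *Hmox1* values was not tested.

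In neuron-like and oligodendrocyte-like nuclei *Hmox1* lay at 0.16 to 0.51 CPM in both libraries. The inhibitory class had 5 and 15 UMIs (0.16 and 0.384 CPM, log2 ratio 1.26 [-0.27, 3.08]) and the oligodendrocyte-like class 1 and 4, and both intervals held 0. Excitatory neuron-like nuclei had 19 and 27 UMIs, and 0.443% and 0.396% of them held a UMI, at median depths of 11087 and 12632 UMIs. The genes most like *Hmox1* across the 68 points were *Ms4a6c* (r = 0.76), the uncharacterised *5430427O19Rik* (0.76) and *C5ar1*, a complement receptor of myeloid cells (0.74). The border macrophage-like cluster, with 28 and 44 nuclei, fell under the limit of 50 nuclei per library and is not among these points.

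*Slc7a11* (chromosome 3, 49892526 to 50443614, minus strand), the cystine transporter, whose locus overlaps other annotated genes on both strands, had its highest level in a small unnamed cluster led by *Pdgfra*, with 79 Normal and 88 SAH nuclei that carried markers of oligodendrocyte precursors, astrocytes and vascular cells. There it had 32 UMIs in Normal (137 CPM) and 156 in SAH (576 CPM), a log2 ratio of 2.07 [1.51, 2.67]. This cluster held 0.213% of all UMIs and 23.8% of those of *Slc7a11*. Within it, nuclei with vascular and leptomeningeal markers (*Dcn*, *Col1a1*, *Slc47a1* and others) held most of the SAH UMIs. The 12 such Normal nuclei held 7 UMIs (203 CPM [81.5, 417]) and the 21 SAH nuclei 107 (2024 CPM [1659, 2446]), a log2 ratio of 3.32 [2.23, 4.67]. Of these, 3 Normal and 13 SAH nuclei had a UMI. One SAH nucleus held 44 of the 107, and without it and the highest Normal nucleus the levels were 61.7 and 1245 CPM. The summed level of the vascular and leptomeningeal markers in these nuclei was 8220 CPM in Normal and 7207 in SAH. Astrocyte marker nuclei of the cluster (8 and 12) had 15 and 17 UMIs, or 774 and 505 CPM, with a log2 ratio of -0.61 [-1.70, 0.49]. These UMIs lay in 4 Normal and 2 SAH nuclei, with up to 9 and 11 in 1 nucleus.

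**Figure D3:**
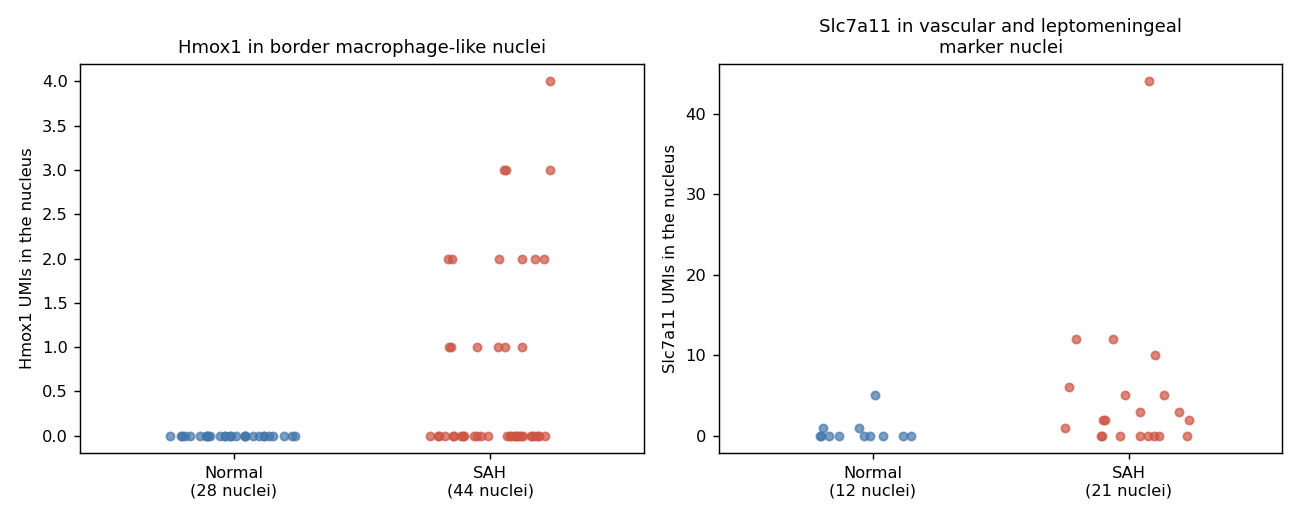
UMIs in each nucleus (points, spread sideways for visibility) of *Hmox1* in border macrophage-like nuclei and of *Slc7a11* in vascular and leptomeningeal marker nuclei, Normal and SAH. *Hmox1* is at 0 in the 28 Normal nuclei and reaches 4 in SAH, and *Slc7a11* reaches 5 in Normal and 44 in SAH.

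In the main classes *Slc7a11* was low. Microglia-like nuclei held 2 UMIs in Normal (1.37 CPM [0.166, 4.96]) and 22 in SAH (9.22 CPM [5.78, 14.0]), and inhibitory neuron-like nuclei 75 (2.40 CPM) and 130 (3.33 CPM), a log2 ratio of 0.47 [0.05, 0.90]. In the inhibitory class 1 SAH nucleus held 13 UMIs. The shares of its nuclei with a UMI, 1.85% [1.42, 2.37] and 2.10% [1.67, 2.61], had overlapping intervals. Its log2 ratio was 0.135 with nuclei gated one by one and 1.11 when thinned. The oligodendrocyte-like class held 1 and 12 UMIs (0.273 and 1.53 CPM, 2.49 [-0.27, 7.91]), and excitatory neuron-like nuclei were at 2.59 and 2.37 CPM. Of 5 inhibitory clusters with at least 20 nuclei in each library and 20 UMIs of the gene, 4 were higher and 1 lower in SAH. Of 5 such excitatory clusters, 2 were higher and 3 lower. The inhibitory extremes were a cluster led by *Vip*, with 3 and 18 UMIs (log2 ratio 2.06 [0.28, 4.47]), and one led by *Eya4*, with 18 and 3 (-2.96 [-5.37, -1.18]). These intervals take UMIs as independent.

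*Nfe2l2* lies on chromosome 2 (75675513 to 75704641, minus strand), where the annotated *Gm24996* overlaps it. Among the 4 main classes *Nfe2l2* was highest in microglia-like nuclei in both libraries, followed by oligodendrocyte-like, inhibitory and excitatory neuron-like nuclei. No neighbouring intervals in this order overlapped. Microglia-like nuclei had 134 CPM in Normal (196 UMIs) and 170 CPM in SAH (406 UMIs), a log2 ratio of 0.34 [0.09, 0.59]. Within the 2 clusters that made up this class the log2 ratios were smaller, 0.17 and 0.31, and each interval held 0. Microglia-like nuclei held 1.62% of all UMIs and 35.3% of those of *Nfe2l2*. Border macrophage-like nuclei were at 174 and 164 CPM from 6 and 15 UMIs. Vascular and leptomeningeal marker nuclei of the cluster led by *Pdgfra* were at 232 [100, 456] and 151 [65.3, 298] CPM, from 8 UMIs in each library. In oligodendrocyte-like nuclei the level was 28.6 CPM (105 UMIs) and 31.8 CPM (249 UMIs), a log2 ratio of 0.15 [-0.18, 0.50].

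The largest ratio of *Nfe2l2* among the main classes was in neurons, where its level was lowest. Excitatory neuron-like nuclei had 68 UMIs in Normal (1.28 CPM) and 182 in SAH (2.18 CPM), a log2 ratio of 0.77 [0.36, 1.2]. Only 4 excitatory clusters had at least 20 nuclei in each library and 20 UMIs of the gene. Of these, 3 were higher and 1 lower in SAH (log2 ratios from -0.27 to 1.27), and each interval held 0. Inhibitory neuron-like nuclei had 137 UMIs (4.38 CPM) and 243 (6.22 CPM), a log2 ratio of 0.50 [0.20, 0.82]. Thalamic neuron-like nuclei, at 2.52 and 2.43 CPM, gave -0.05 [-0.97, 0.92]. The 12 microglia markers, all of which had UMIs in neurons, summed to 92.4 CPM in Normal and 113 in SAH in excitatory nuclei and to 103 and 114 in inhibitory nuclei, and their part in the neuronal values of *Nfe2l2* was not tested. Genes most like *Nfe2l2* across the 68 points were *Tor1aip1* (r = 0.92), *Elf1* (0.91), an ETS transcription factor, and *Pak2* (0.91), a protein kinase.

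*Gclc* and *Gclm*, the catalytic and modifier subunits of the enzyme that starts glutathione synthesis, did not move together. *Gclm* had a higher level in SAH in both glial classes, past 1.5-fold in microglia-like nuclei. The oligodendrocyte-like class gave 125 UMIs in Normal (34.1 CPM) and 400 in SAH (51.1 CPM), a log2 ratio of 0.58 [0.29, 0.89] that fell just short of 1.5-fold. In microglia-like nuclei it had 18 UMIs (12.4 CPM) and 55 (23.0 CPM), a log2 ratio of 0.90 [0.11, 1.76]. The microglia-like class was made of 2 clusters in unequal parts, one led by *Inpp5d* with 519 Normal and 994 SAH nuclei and one led by *Siglech* with 473 and 283. *Gclm* had 11 and 38 UMIs in the first (0.13 [-0.87, 1.24]) and 7 and 17 in the second (1.87 [0.53, 3.38]). The mean over single nuclei gave 0.51 for the class. In excitatory and inhibitory neuron-like nuclei its log2 ratio was 0.02 [-0.09, 0.13] and 0.01 [-0.12, 0.13]. *Gclc* was instead lower after SAH in inhibitory neuron-like nuclei, with 63.4 CPM in Normal (1981 UMIs) and 45.3 CPM in SAH (1770 UMIs), a log2 ratio of -0.49 [-0.58, -0.39], under the 1.5-fold limit. In excitatory nuclei *Gclc* gave -0.16 [-0.24, -0.08], and in oligodendrocyte-like and microglia-like nuclei -0.05 and -0.19 with intervals that held 0. Relative to the 500 genes nearest in mean CPM, *Gclc* was at -0.29 in inhibitory, -0.004 in excitatory, -0.005 in oligodendrocyte-like and -0.25 in microglia-like nuclei. Of 42 clusters with enough nuclei and UMIs, 35 had less *Gclc* in SAH (median log2 ratio over the 42 -0.23), and 12 of the 42 intervals lay wholly below 0. The same count was not made over all genes, whose median was also below 0 in both neuronal classes and in oligodendrocyte-like nuclei.

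*Txnrd1*, the cytosolic thioredoxin reductase, was about 2-fold higher in microglia-like nuclei after SAH. It had 37 UMIs in Normal (25.4 CPM) and 124 in SAH (52.0 CPM), a log2 ratio of 1.03 [0.49, 1.61]. Within the class the ratios were smaller, 0.95 [0.20, 1.78] in the *Inpp5d* cluster and 0.59 [-0.38, 1.56] in the *Siglech* cluster. Border macrophage-like nuclei had 1 and 17 UMIs (28.9 and 186 CPM), a log2 ratio of 2.68 [0.01, 8.07]. In the other main classes its level lay within 20.4 to 23.4 CPM in Normal and 19.1 to 22.2 CPM in SAH. In the astrocyte marker nuclei of the mixed cluster it had 0 UMIs in 8 Normal nuclei (up to 190 CPM) and 8 UMIs in 3 of 12 SAH nuclei (238 CPM [103, 469]), so that the intervals overlapped. Among the main classes, the intervals of neighbouring levels overlapped throughout in Normal, and in SAH microglia-like nuclei stood above the rest. Outside the main classes, border macrophage-like and astrocyte marker nuclei had higher SAH levels than microglia-like nuclei. Thalamic neuron-like nuclei, a part of the excitatory class, were at 37.46 CPM [32.85, 42.53] in Normal and 35.19 CPM [31.96, 38.66] in SAH. *Eid3* overlaps *Txnrd1* on the same strand, as *Gm6061* does *Gclm*, so that reads could be split between them.

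**Figure D4:**
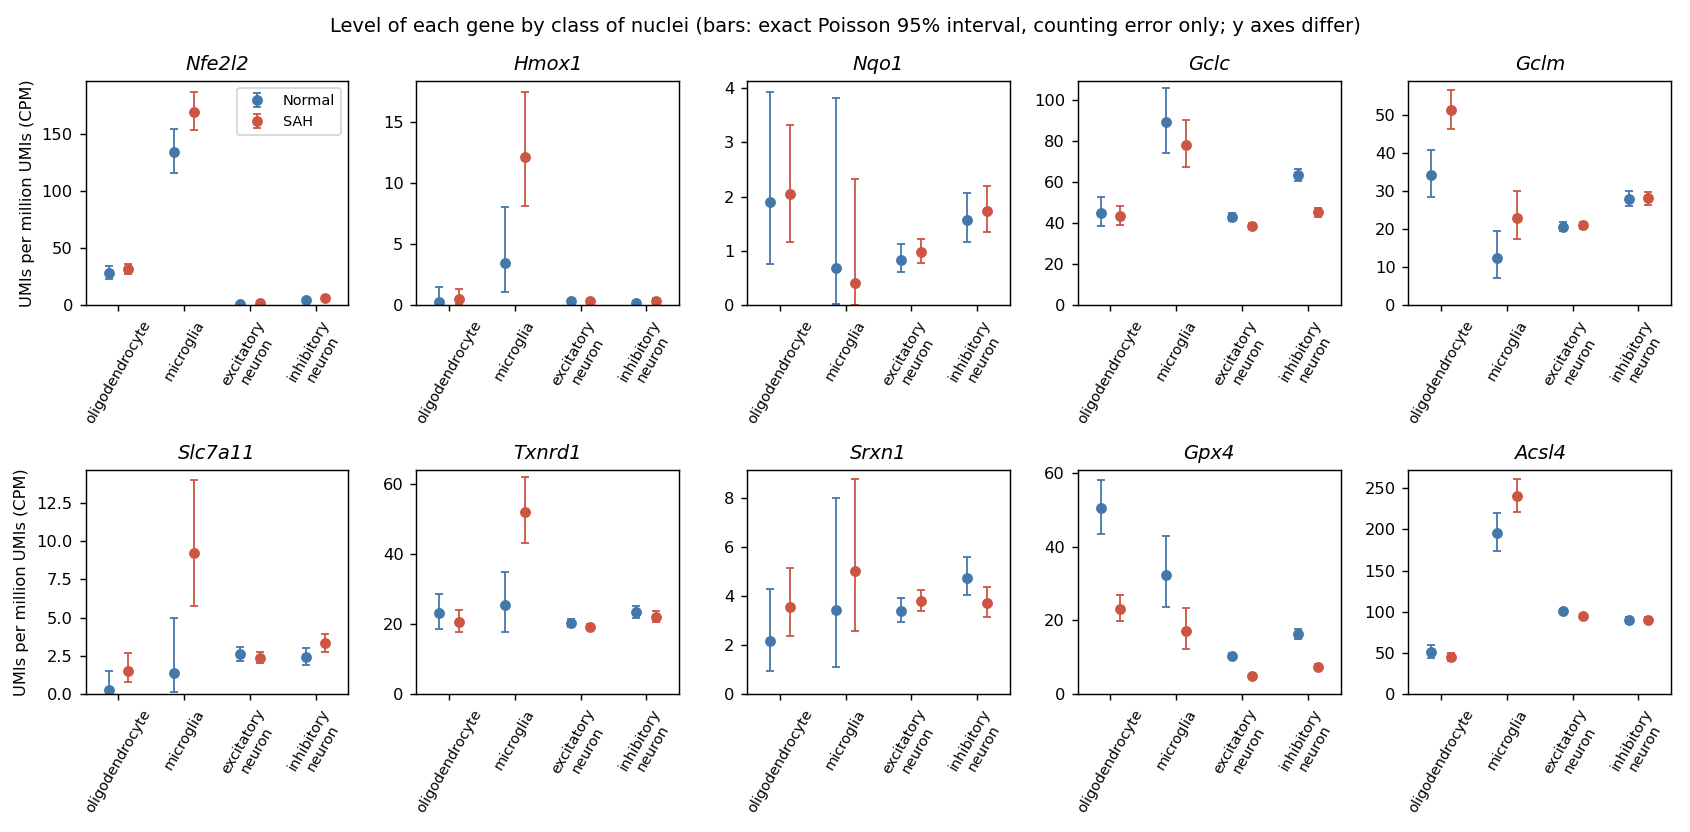
Level of each of the 10 genes (CPM, y axes differ and start at 0) in 4 classes of nuclei, Normal in blue and SAH in red, with the 95% Poisson interval of counting error. *Gpx4* is lower in SAH in all 4 classes, while *Hmox1*, *Slc7a11* and *Txnrd1* are higher in SAH in microglia-like nuclei.

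The other NRF2 target genes among the members were low. *Nqo1*, a quinone reductase, had 45 UMIs in Normal (0.844 CPM) and 82 in SAH (0.981 CPM) in excitatory neuron-like nuclei, a log2 ratio of 0.22 [-0.33, 0.77]. The inhibitory class gave 0.15 [-0.40, 0.71], and microglia-like nuclei had 1 UMI in each library. *Srxn1*, which repairs over-oxidised peroxiredoxins, was at 3.41 and 3.82 CPM in excitatory neuron-like nuclei (log2 ratio 0.16 [-0.11, 0.43]). In inhibitory neuron-like nuclei it was at 4.77 and 3.74 CPM (-0.35 [-0.69, -0.01]), a difference that turned to 0.07 when centred on genes of like length. The oligodendrocyte-like class held 8 and 28 *Srxn1* UMIs (2.18 and 3.58 CPM, 0.71 [-0.46, 2.06]) and 7 and 16 of *Nqo1* (0.10), too few to be compared.

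*Acsl4*, a fatty acid ligase that promotes ferroptosis, was highest in microglia-like nuclei, with 196 CPM in Normal (285 UMIs) and 241 CPM in SAH (575 UMIs), a log2 ratio of 0.30 [0.09, 0.51]. It stood at 101 and 94.5 CPM in excitatory, 89.8 and 90.5 CPM in inhibitory neuron-like and 51.5 and 45.1 CPM in oligodendrocyte-like nuclei. The log2 ratios of these classes were -0.09, 0.01 and -0.19. Thus no main class had *Acsl4* past 1.5-fold, and its largest fold was 1.23, in microglia-like nuclei.

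The list named NRF2 control held 10 genes, not all of them regulators of NRF2 itself. In oligodendrocyte-like nuclei 1 of 10 compared was lower and 4 were higher, with a median log2 ratio of 0.33 (all genes -0.08). The 4 higher genes were the small MAF genes *Maff* (5 and 57 UMIs, 1.36 and 7.28 CPM, log2 ratio 2.42 [1.11, 4.09]) and *Mafk* (12 and 74 UMIs, 1.53 [0.64, 2.55]), with *Bach2* and *Bach1*, repressors of the same elements. *Mafg* was lower there (36.8 and 22.4 CPM, -0.72) and in excitatory and inhibitory neuron-like nuclei (-0.83 and -0.84). In both neuronal classes *Sqstm1*, which binds KEAP1, and *Nfe2l1* were lower too, so that 3 of 10 were lower in each. In excitatory nuclei 0 were higher. In inhibitory nuclei 1 was, *Maff*, with 18 and 35 UMIs and a log2 ratio of 0.64 [-0.22, 1.54], an interval that held 0. In microglia-like nuclei 0 of 7 compared genes were past 1.5-fold in either direction. Over all compared genes the shares higher and lower were 14.7% and 18.7% in oligodendrocyte-like, 16.3% and 14.9% in microglia-like, 16.3% and 16.3% in excitatory and 12.2% and 18.0% in inhibitory neuron-like nuclei.

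Among 39 other NRF2 target genes, ferritin light chain gene *Ftl1* was lower in all 4 classes, from 36.8 to 13.7 CPM in oligodendrocyte-like nuclei (-1.43 [-1.81, -1.05]) and by -0.89, -0.95 and -1.03 in microglia-like, excitatory and inhibitory neuron-like nuclei. *Prdx1*, a peroxiredoxin, went from 146 to 72.4 CPM in oligodendrocyte-like nuclei. *Gsta3*, a glutathione transferase, was higher in excitatory neuron-like nuclei, with 305 UMIs in Normal (5.72 CPM) and 2181 in SAH (26.1 CPM), a log2 ratio of 2.19 [2.01, 2.37]. *Gsta3* was among the 10 leading genes of the excitatory cluster led by *Npnt*, which held 14 Normal and 76 SAH nuclei, and the part of this cluster in the ratio was not tested. It was also higher in oligodendrocyte-like (1.33 [0.63, 2.09]) and inhibitory neuron-like nuclei (0.63 [0.32, 0.93]). In microglia-like nuclei glutathione reductase *Gsr* was higher (19.2 and 41.5 CPM, 1.11 [0.49, 1.77]), as was *Blvrb* (0.63), and the iron exporter *Slc40a1* was lower (178 and 81.7 CPM, -1.12 [-1.40, -0.85]). Glutathione synthetase *Gss* was higher in inhibitory nuclei (0.81), *Akr1b3* in oligodendrocyte-like (1.27) and *Cbr3* in excitatory nuclei (0.95), and *Taldo1* (-0.72, excitatory) and *Cyb5r1* (-0.91, inhibitory) were lower. In all, 3 of 24 compared genes were higher and 8 lower in oligodendrocyte-like, 2 and 3 of 22 in microglia-like, 3 and 3 of 31 in excitatory and 2 and 7 of 31 in inhibitory neuron-like nuclei. The medians were -0.22, 0.21, -0.20 and -0.32, where all compared genes gave -0.08, 0.01, -0.09 and -0.16. The backgrounds for the counts were 14.7%, 16.3%, 16.3% and 12.2% higher and 18.7%, 14.9%, 16.3% and 18.0% lower, in the same order of classes.

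The 26 other glutathione and peroxidase genes were counted against backgrounds, higher and lower, of 12.2% and 18.0% in inhibitory, 16.3% and 16.3% in excitatory, 14.7% and 18.7% in oligodendrocyte-like and 16.3% and 14.9% in microglia-like nuclei. In inhibitory neuron-like nuclei 8 of 24 were lower and 0 higher (median -0.33), led by *Gpx3*, a secreted glutathione peroxidase (7.04 and 2.51 CPM, -1.49 [-1.85, -1.14]), and the peroxiredoxin *Prdx5* (-0.86). In excitatory nuclei 4 of 24 were lower and 0 higher (median -0.28), with *Gpx3* at -1.18 and *Gpx1* at -0.88. In oligodendrocyte-like nuclei 5 of 18 were lower and 2 higher (median -0.36), with *Glrx5* at -1.13, *Glrx2* at -0.73 and *Sesn1* at 0.65. *Txnrd2* was at 0.78 [-0.06, 1.71] there, from 15 and 55 UMIs. In microglia-like nuclei 4 of 14 were lower and 2 higher (median -0.22), with *Sod1* at -0.95, *Chac2* at -0.81 and *Msra* at 0.77. *Txnrd2* was at 0.65 [-0.10, 1.45] there, from 21 and 54 UMIs. Both *Txnrd2* intervals held 0. The ribosomal protein genes given above were lower in these same nuclei, and their relation to the lists was not tested.

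Of 22 other ferroptosis suppressor genes, 7 of 18 compared were lower and 1 (*Trit1*, 0.61) higher in oligodendrocyte-like nuclei (median -0.29), with backgrounds of 18.7% lower and 14.7% higher. *Acsl3*, which supplies monounsaturated fatty acids, went from 293 to 140 CPM there (-1.06 [-1.18, -0.94]), and *Mboat1*, a phospholipid acyltransferase, from 104 to 50.6 CPM (-1.05). *Mboat1* was instead higher in microglia-like nuclei (28.1 and 72.1 CPM, 1.36 [0.86, 1.89]) and inhibitory neuron-like nuclei (0.68). The difference between classes was not tested. *Trit1*, which modifies transfer RNA, was at 53.5 and 133 CPM in microglia-like nuclei (1.31), where *Pcbp1* and *Pcbp2*, which carry iron, were at -0.92 and -0.72. In excitatory nuclei the small heat shock gene *Hspb1* had 7 and 98 UMIs (0.131 and 1.17 CPM, 3.16 [2.06, 4.51]) and *Aifm2*, which encodes FSP1, 37 and 117 (1.01 [0.47, 1.59]). *Pcbp2* (-0.90) and *Cisd1* (-0.64) were lower in excitatory nuclei and likewise in inhibitory nuclei (-0.86 and -0.63). Counts were 2 higher and 2 lower of 16 in microglia-like, 2 and 2 of 21 in excitatory and 1 and 3 of 20 in inhibitory neuron-like nuclei, with medians of 0.04, -0.22 and -0.18. The backgrounds were 16.3% higher and 14.9% lower, 16.3% and 16.3%, and 12.2% and 18.0%.

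Of 35 other ferroptosis driver genes, *Acaca*, the acetyl-CoA carboxylase of fatty acid synthesis, stood out in glia. It had 1649 UMIs in Normal (449.6 CPM) and 15633 in SAH (1997 CPM) in oligodendrocyte-like nuclei, a log2 ratio of 2.15 [2.08, 2.23]. In microglia-like nuclei it was at 49.4 and 151 CPM (1.62 [1.25, 2.00]). *Alox5*, a lipoxygenase, was higher in microglia-like nuclei (32.9 and 86.7 CPM, 1.40 [0.94, 1.88]) and *Sat1*, of polyamine breakdown, lower (374 and 191 CPM, -0.97), as was *Fads1* (-0.74). *Nox4*, an NADPH oxidase, had 4 and 65 UMIs in oligodendrocyte-like nuclei (2.93 [1.5, 4.85]) and was lower in excitatory nuclei (-0.85), where *Por* was also lower (-0.72). *Hmgb1* (-0.92) and *Ncoa4* (-0.85), which carries ferritin to breakdown, were lower in oligodendrocyte-like nuclei. In excitatory nuclei the stress factor gene *Atf3* had 7 and 107 UMIs (3.29 [2.19, 4.63]) and *Cybb*, an NADPH oxidase of phagocytes, 18 and 115 (2.03). In inhibitory nuclei *Cybb* was at 1.28, *Slc11a2* at -0.64 and *Ddit4* at -0.63. The summed border macrophage markers went from 7.97 to 12.5 CPM in excitatory and from 8.70 to 16.5 CPM in inhibitory nuclei. Their part in the neuronal values of *Cybb* was not tested. Counts were 3 higher and 4 lower of 22 in oligodendrocyte-like (median -0.05), 6 and 3 of 21 in microglia-like (-0.07), 4 and 2 of 33 in excitatory (-0.15) and 1 and 2 of 30 in inhibitory neuron-like nuclei (-0.26). The shares of all compared genes, higher and lower, were 14.7% and 18.7%, 16.3% and 14.9%, 16.3% and 16.3%, and 12.2% and 18.0% in that order.

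**Figure D5:**
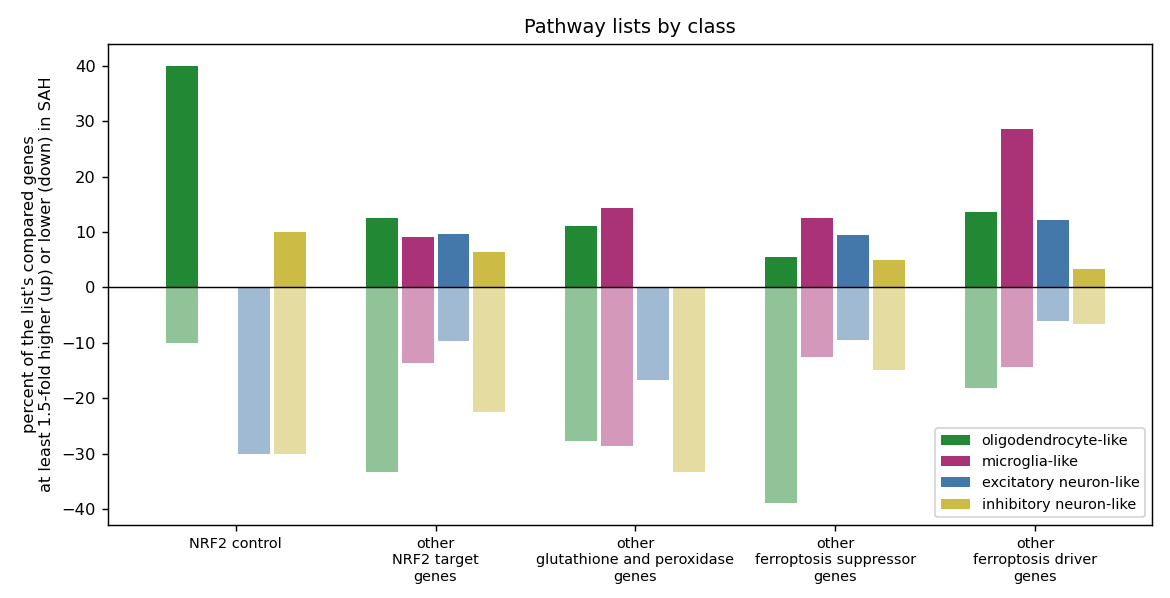
Percent of the compared genes of each pathway list that were at least 1.5-fold higher (bars above 0, full colour) or lower (bars below 0, pale) in SAH, by class. The tallest bar above 0 is that of NRF2 control genes in oligodendrocyte-like nuclei, 4 of 10 genes, and the longest below 0 that of ferroptosis suppressor genes in the same nuclei, 7 of 18, where 14.7% of all compared genes were higher and 18.7% lower.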

How the data were processed

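Nuclei of brain tissue were measured by droplet single-nucleus RNA sequencing. The authors deposited counts of UMIs per gene and nucleus, intronic reads included, without normalization, made with Cell Ranger (6.1.2 in the file headers, 5.0.0 in the submitters' processing notes) on mm10. The deposited barcodes number more in SAH than in Normal, the opposite of the study's own counts of nuclei. Limits were 300 to 7000 genes, under 10% mitochondrial and 3% haemoglobin UMIs and under 100000 UMIs, which removed 72 Normal and 29 SAH nuclei. Scrublet (scanpy 1.11.5) scores removed 1177 and 2644 as doublets, at 0.8% per 1000 nuclei. Libraries were integrated by canonical correlation and clustered with Seurat 5.3.0 (2000 features without the members and listed genes, 25 components, resolution 1.2). A cluster was named from at least 3 markers at 3 times their level at percentile 25 of all clusters (5 CPM at least), with at least 20 UMIs each, unless another type came above 60% of that share of markers or led its top genes, or it was shallow without a marker on top. Microglia and border macrophages were not counted as rivals of each other. The border macrophage-like cluster was named with 8 of 9 markers of its own type, beside 8 of 12 microglia markers. The naming rule was set after clusters had been seen, so differences from the study's cell types may come from the rebuilt names. Marker nuclei of the mixed cluster had at least 3 UMIs over 2 markers and 2 times those of the next type; over all kept nuclei, 27.1% of Normal and 30.1% of SAH nuclei lay near that cut, between 1.5 and 3 times.

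UMIs were summed per class and library. Intervals are exact Poisson (levels), exact binomial (shares) and exact conditional binomial (ratios). Only the ratio intervals were tried on simulated data, drawn as Poisson counts, the error they assume. That trial cannot show how they hold where UMIs gather in few nuclei. No test was run with 1 library per group. Members and gene lists were chosen with earlier results of these data known. Named genes are the members, the 2 largest rises and falls past 1.5-fold of each list and class, and the 3 genes most like *Nfe2l2*, *Hmox1* and *Gpx4* over clusters with at least 50 nuclei per library, among genes with at least 200 UMIs. *Bach1*, *Bach2* and *Nfe2l1* were named after their values were seen, with the clusters led by *Vip* and *Eya4*. Gene positions and lengths came from GENCODE on GRCm38, which matched 99.6% of genes. Alternatives are given in the closing section.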

Additional observations from a re-analysis of the deposited data

Results flagged for a closer look

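*Slc7a11* in the unnamed cluster led by *Pdgfra*, outside the named classes, was at 576 CPM in SAH (156 UMIs in 88 nuclei) against 137 CPM in Normal (32 UMIs in 79 nuclei). It was singled out because the Poisson interval of its SAH level, in nuclei of no named class, lay above that of Normal. Such intervals take UMIs as independent, yet the SAH UMIs lay in 18 nuclei, with 44 in 1 of them. The shares of nuclei with a UMI, 11.4% [5.34, 20.5] in Normal and 20.5% [12.6, 30.4] in SAH, had overlapping intervals. No explanation was tested.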

How the results depend on the processing

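The counts of members past 1.5-fold are small and moved by few genes, not all of them near the limit. *Srxn1* entered the oligodendrocyte-like count with the shallow cluster added (68 Normal and 436 SAH nuclei), at a log2 ratio of 1.22. *Hmox1* and *Slc7a11*, at 1.825 and 2.75, entered the microglia-like count at a minimum of 20 UMIs. In oligodendrocyte-like nuclei the count higher in SAH was 1 in place of 0 when centred on the median of all genes, on the 500 genes nearest in mean CPM or in gene length, thinned to 1000 UMIs, as the mean of the CPM of each nucleus, with the shallow unnamed cluster added or at a minimum of 20 UMIs. In microglia-like nuclei the count higher was 1 when thinned, as the mean of each nucleus or at a fold of 2, 4 at a minimum of 20 UMIs and 0 at 200, and the count lower was 0 at a fold of 2 or at 200 UMIs. In excitatory neuron-like nuclei the count higher was 2 when nuclei were gated one by one or thinned and 0 at a fold of 2, and the count lower was 2 when thinned. In inhibitory neuron-like nuclei the count higher was 2 when centred on the median of all genes or as the mean of each nucleus, and 1 when centred on genes nearest in mean CPM or length, thinned or at 20 UMIs. The log2 ratio of *Gpx4* stayed below 0 in every class under each alternative, but its size did not hold. It ran from -1.32 (inhibitory neuron-like, thinned) to -0.03 (oligodendrocyte-like, centred on ribosomal protein genes), where almost no difference was left. Microglia-like nuclei were at -0.14 with the same centring. *Hmox1* in microglia-like nuclei ran from -0.85 with no doublets removed to 2.85 without integration, as its nuclei changed class. Without integration 0 nuclei of either library were border macrophage-like. *Slc7a11* in vascular and leptomeningeal marker nuclei was at 1245 CPM in SAH without its highest nucleus, below the interval of 1659 to 2446 CPM with it. Centring on length or ribosomal protein genes, the added shallow cluster or border macrophages and the left-out nucleus were chosen after seeing the data. No paired analysis was possible because each group had 1 library. Depth limits *Hmox1*, *Nqo1*, *Slc7a11* and *Srxn1* most.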
